A study of Mus musculus with 2 samples.

Results

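T cells and natural killer (NK) cells were picked out of single-cell libraries of tissue labelled olfactory epithelium by the genes they carried. A cell was taken as a barcode with at least 1000 unique molecular identifiers (UMIs, 1 per captured RNA molecule), at least 300 genes and at most 15% mitochondrial UMIs. A T or NK cell had to show at least 2 of 6 genes, Cd3d, Cd3e, Cd3g, Cd2, Nkg7 and Klrb1c, and no UMI of Cd79a, C1qa or Cpa3, which mark B cells, macrophages and mast cells. This gave 123 of 23816 cells. They numbered 83 of 14136 cells in mouse 1 (0.587%, exact 95% Clopper-Pearson interval 0.468 to 0.727) and 40 of 9680 in mouse 2 (0.413%, 0.295 to 0.562). These intervals cover counting error only.

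The series compares the olfactory epithelium of several vertebrates, and the samples used here are 2 male wildtype C57BL/6J mice, untreated and of an age not given in the sources used here, with 1 droplet library from each. They form 1 group, so no condition was compared, and the mouse and its library cannot be told apart. The extract protocol describes digested tissue with red cells lysed. Most cells were stromal: 81.4% and 85.7% fitted a fibroblast rule (at least 3 of Col1a1, Col1a2, Dcn, Pdgfra and Lum, no Ptprc). Omp, the defining gene of mature olfactory neurons, had a UMI in only 17 and 16 cells, so the neurons of the labelled tissue were nearly absent. All cells had a median of 3908.5 and 5199 UMIs, the T and NK cells 3676 and 3594.5 (range 1054 to 32077 and 1384 to 12226). Cell barcodes shared by both libraries numbered 483, of which 2 belonged to a T or NK cell of mouse 1.

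T cells recognise antigen through a T cell receptor, either of alpha and beta chains or of gamma and delta chains, held at the surface by the Cd3 proteins. NK cells lack this receptor, read stress and self signals through receptors of the Klr family, and kill with granzymes and perforin. Gamma-delta T cells of barrier tissues are known for an interleukin-17 programme driven by interleukin-1 and interleukin-23.

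The genes that chose the cells are a description, not a result. Among them Cd3e was found in 54 of 83 and 29 of 40 cells, Cd3g in 53 and 25, Cd3d in 45 and 23, Cd2 in 45 and 21, Nkg7 in 36 and 16, and Klrb1c in 11 and 5. Any Cd3 gene was found in 63 cells (75.9%) and 34 cells (85%). No cell carried all 6 genes: 34 and 16 cells sat at the threshold with 2 of them, 28 and 14 had 3, 13 and 5 had 4, and 8 and 5 had 5. Just outside, 148 and 111 cells had 1 of the 6. A gene outside the rule, Trbc2, the second beta chain constant region, stood at 11.0 and 11.7 CPM (UMIs of a gene per 1000000 UMIs of the summed cells) in these, at 219 and 368 CPM in cells with 2 of the genes and at 800 and 1118 CPM in cells with 3 or more. In fibroblasts, a measure of free RNA, it stood at 1.80 and 1.33 CPM.

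Other cell types left few traces. Of the 10 B cell markers 7 were at 0 in both mice, among them Ms4a1 and Pax5, and the whole list summed to 132 and 124 CPM against 6918 and 10011 CPM in B cells. The macrophage list summed to 822 and 260 CPM against 10699.5 and 12849 CPM in C1q macrophages, with C1qc at 0. The dendritic cell list differed between the libraries, at 1666 and 68.0 CPM, and Cd74, its most abundant gene, gave 394 and 5 UMIs. Flt3, Clec9a, Cd209a and Siglech were at 0 in both. In mouse 1, 3 cells held 20 or more UMIs of Cd74, H2-Aa, H2-Ab1 and Lyz2 together, and in mouse 2 none did. The largest cell of mouse 1, with 32077 UMIs, held 992 of the 1337 Col1a1 UMIs found there and 10 Trdc UMIs. Without it the fibroblast list in mouse 1 stood at 4642 CPM in place of 12648 CPM; mouse 2 had 3636 CPM. Ptprc, the pan-leukocyte gene CD45, was found in 62 (74.7%) and 27 (67.5%) of the cells.

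Genes of the T cell receptor and its signalling chain that the rule did not use were high in these cells. Trbc2 reached 571 and 841 CPM in mouse 1 and mouse 2, with UMIs in 48 and 24 cells, against 0.608% and 0.482% of fibroblasts. Trbc1 and Trbc2 are near-identical at the 3' end and reads may be split between them. Lat, the adaptor that links receptor and signal, stood at 248 and 216 CPM, and Skap1, an adaptor for adhesion, at 248 and 322 CPM. Trbc2, Lat and Skap1 were at 0 in the B cells and in the C1q macrophages of both mice. The alpha constant gene Trac gave 251 and 198 CPM and the delta constant gene Trdc 216 and 210 CPM, in 18 and 12 cells. Variable segments were seldom seen: all Trav genes together gave 3 and 2 UMIs, Trbv genes 4 and 4, Trgv genes 1 and 3, and Trdv genes 12 and 6, of which Trdv4 held 7 and 5.

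**Figure D1:**
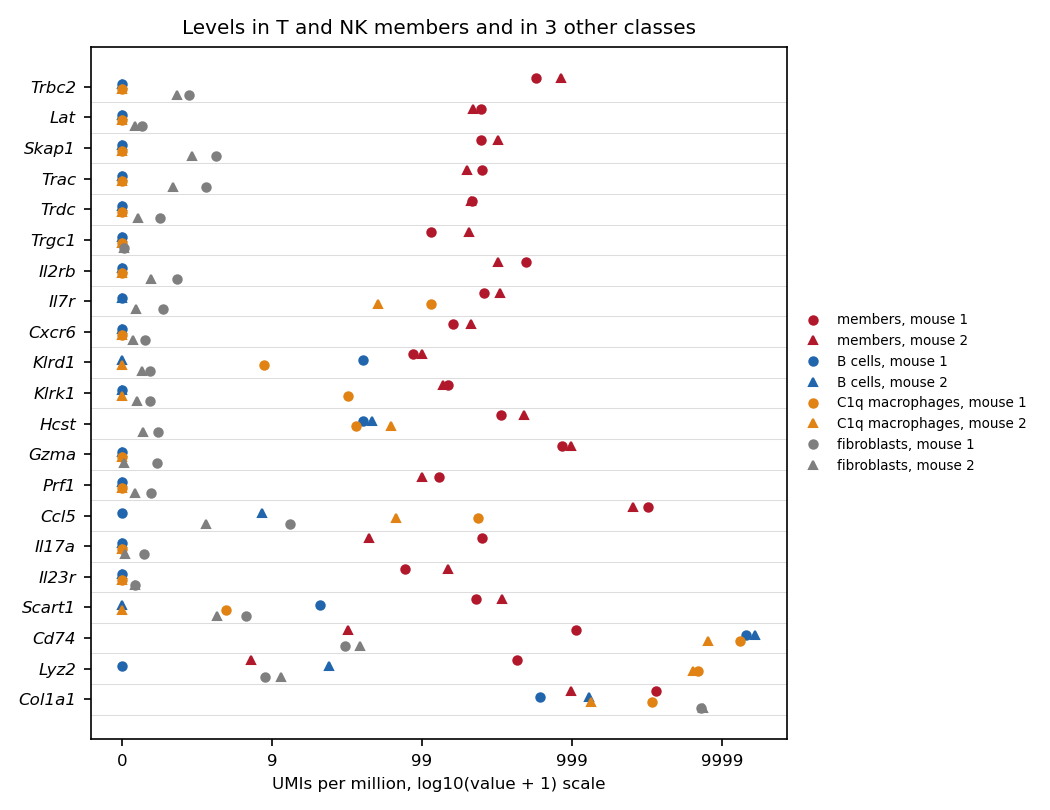
Levels of 21 genes (vertical) in CPM on a log10(value + 1) axis, in the T and NK cells, B cells, C1q macrophages and fibroblasts, 1 point per mouse. Trbc2, Gzma and Prf1 sit at 98.9 CPM or more in the T and NK cells (members) and at 0 in the B cells and C1q macrophages of both mice.

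To see where these cells differ from other leukocytes, counts were summed per mouse and class and compared in 1 edgeR fit with B cells (14 and 37 cells), C1q macrophages (50 and 77), mast cells (126 and 43) and neutrophils (157 and 20). The mouse was a block, the genes of every class rule were left out, and p-values were adjusted over 6401 genes. Since measured levels chose the cells, genes that travel with the chosen ones had to differ, and the counts below describe the classes rather than support their names. Against the mean log level of the 4 other classes, 665 genes (10.4% of those tested) had an adjusted p under 0.05, 420 higher (6.56%) and 245 lower (3.83%), and in both mice all 665 changed in that direction. A test on the same mice picked these genes, so a shared direction, here and in the comparisons below, adds nothing to the test. The median log2 fold change of all tested genes was 0.07. Without the mouse as a block the count was 439, 312 higher and 127 lower. Without the 8 and 4 T and NK cells that held 1% or more stromal UMIs, it was 994, and more genes were lower (532) than higher (462).

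Of 18 tested genes for the receptor complex and its signalling, 17 were higher and none lower, with a median log2 fold change of 6.93 (6.70 with genes at 0 elsewhere set to their bound). Zap70, the kinase that binds the Cd3 chains, was at 121 and 186 CPM, a log2 fold change of 7.40 ± 0.77 (SE, n = 2 mice, edgeR adjusted p = 1.64e-05). Trdc was at 0 in the other classes of both mice, and its log2 fold change was 8.85 ± 0.70 (edgeR adjusted p = 2.66e-06). Of 22 tested transcription factors 16 were higher and 1, Zeb2, lower, with a median of 2.38. Lef1 and Tcf7, factors of naive and memory T cells, rose with log2 fold changes of 5.07 ± 0.54 and 4.66 ± 0.78. Bcl11b, which fixes T cell identity, had a log2 fold change of 5.98 ± 0.67 (edgeR adjusted p = 1.56e-05), and Gata3 one of 5.36 ± 0.83.

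Some NK receptor and killing genes were found in a minority of the cells, and others of these lists were widespread: Srgn, which encodes the granule proteoglycan serglycin, was in 71 and 37 cells and Hcst, the adaptor DAP10, in 54 and 29. Gzma, granzyme A, gave 857 and 977 CPM from only 16 and 5 cells, with up to 52 and 45 UMIs in a cell. It was at 0 in the B cells, macrophages, mast cells and neutrophils of both mice and in 0.322% and 0.0241% of fibroblasts. Against C1q macrophages it was at least 184-fold higher, taking 3 UMIs over both mice as the floor. Of 10 tested cytotoxic genes 5 were higher than in the mean of the other classes (Gzma, Prf1, Gzmb, Ctsw and Serpinb9) and 1, Lamp1, was lower, with a median of 2.79. Prf1, the pore-forming perforin, stood at 129 and 98.9 CPM in 13 and 6 cells. Of 10 tested NK receptor genes 7 were higher than that mean and none lower, with a median of 5.23 (5.21 with bounds). Among them were Klrk1 (148 and 136 CPM), the activating receptor NKG2D, and Klrd1 (86.3 and 98.9 CPM), which encodes CD94. Against C1q macrophages alone 6 of the 10 were higher and 3, Fcgr3, Fcer1g and Tyrobp, lower. Against B cells alone 3 were higher and none lower. The whole list summed to 1992 and 1861 CPM, against 2558 and 2605 CPM in C1q macrophages and 5089 and 2985 CPM in neutrophils. Klra genes form a family of near-identical copies, so their values (Klra4 at 24 and 0 UMIs, Klra8 at 15 and 6) are uncertain.

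With DESeq2's Wald test 48 of the 66 genes chosen by the naming rule in this comparison passed the threshold; Trbc2, Gzma, Klrk1, Il2rb, Ccr7, Cxcr6, Pdcd1, Il17a and Il23r were among the 18 that did not. The direction was the same there for all 66.

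Ccl5, a chemokine of effector lymphocytes, had the highest level of the cytokine list, at 3189 and 2535 CPM in 28 and 9 cells. Near-empty barcodes (50 UMIs or fewer), which hold free RNA, gave 40.3 and 7.44 CPM. Of 11 tested cytokine and chemokine genes 4 were higher than in the other classes (Ccl5, Il17a, Ltb and Areg) and none lower, with a median of 0.55. Ccl5 had a log2 fold change of 7.88 ± 0.39 (edgeR adjusted p = 1.71e-09). Areg, a growth factor tied to tissue repair, stood at 113 and 192 CPM in 12 and 7 cells. The type 2 cytokines Il4 and Il5 were at 0 in both mice, as were Il21, Il22 and Il9, and Il13 gave 1 and 0 UMIs. A count of 0 allows up to 3 UMIs, which is 8.09 and 18.6 CPM here. Ifng gave 17 UMIs in mouse 1, all from 1 cell, and 1 UMI in mouse 2.

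Genes of both recirculating and tissue-held lymphocytes were present. Of 5 tested residence genes 4 were higher (Cxcr6, Itgae, Rgs1 and Rgs2), with a median of 3.28. Cxcr6, a chemokine receptor of tissue lymphocytes, was at 159 and 210 CPM in 25 and 12 cells, and Itgae, the CD103 integrin chain that binds epithelium, at 80.9 and 179 CPM in 21 and 12. Of 10 tested recirculation genes 7 were higher and 1, Klf2, lower, with a median of 2.66. Il7r, the interleukin-7 receptor, was at 256 and 328 CPM in 44 and 21 cells. Ccr7, the lymph node homing receptor, shows how the mean log level works: at 167 and 136 CPM it was higher than the mean of the other classes (log2 fold change 5.70 ± 0.59), 3 of which were at 0, and lower than in B cells (733 and 836 CPM; log2 fold change -2.30 ± 0.47, edgeR adjusted p = 0.0126).

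Of 19 tested cytokine receptor genes 11 were higher and 1, Il10ra, lower, with a median of 2.70. Il2rb, the shared chain for interleukin-2 and interleukin-15, was at 491 and 322 CPM in 59 and 21 cells. Il18r1 was at 164 and 161 CPM, with a log2 fold change of 5.74 ± 0.57. Icos, a costimulatory receptor, differed between the libraries, at 450 and 130 CPM. Of 7 tested inhibitory receptors 2, Pdcd1 and Ctla4, were higher and none lower, with a median of 1.92. The gene Lag3 gave 8 UMIs, all in 1 cell of mouse 1.

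Among immediate early genes, which respond quickly to stimulation or tissue handling, 7 of 15 tested were lower (Egr1, Ier3, Fos, Zfp36, Atf3, Dusp1 and Fosb) and none higher, with a median of -1.58. Fos stood at 318 and 223 CPM and fell by 2.18 ± 0.32 on the log2 scale (edgeR adjusted p = 0.000178). In near-empty barcodes the summed list stood at 11909 and 10960.4 CPM, against 4310 and 3902 CPM in the T and NK cells; mast cells had 27658 and 25053 CPM and neutrophils 8457 and 5441 CPM. Some stromal genes were also lower in this comparison: Dcn, 1 of 10 tested fibroblast genes, and Cnmd, Chad and Comp, 3 of 9 tested cartilage and bone genes (median -1.84). The part of free RNA in the immediate early genes' difference was not tested. Against B cells alone none of the 15 passed the threshold, and against C1q macrophages 7 were lower and 1, Nr4a1, was higher. None of 8 tested heat shock genes, 7 interferon response genes and 8 proliferation genes passed against the mean of the other classes at an adjusted p under 0.05 in edgeR. Of 10 tested genes of MHC class I presentation 2 were higher, H2-Q7 (431 and 396 CPM) and H2-K1 (1706 and 1441 CPM), with a median of 0.84.

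**Figure D2:**
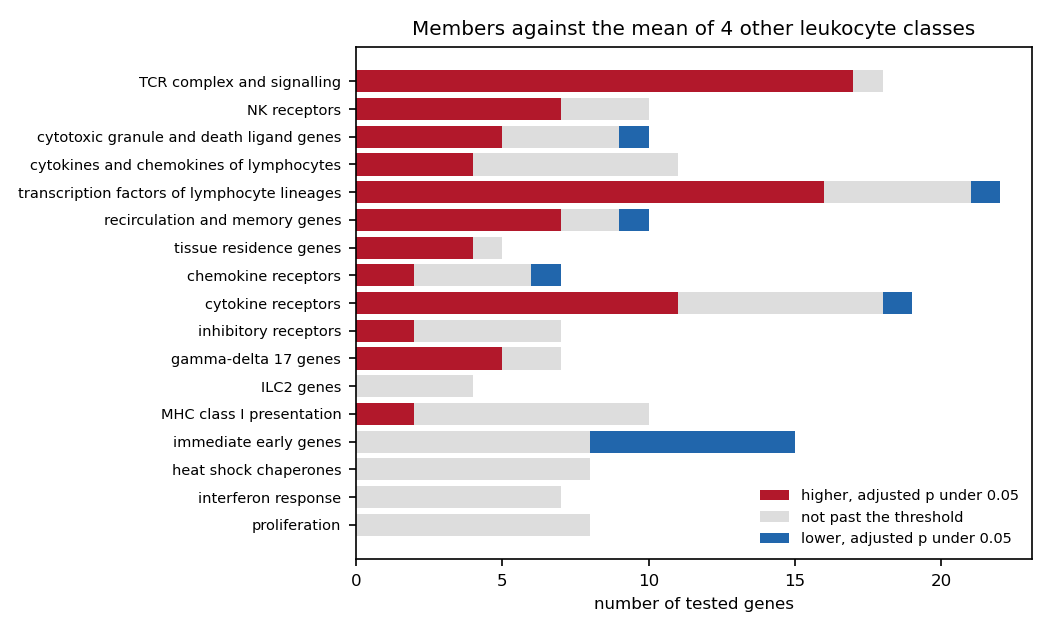
Tested genes of 17 lists (vertical) by outcome in the T and NK cells against the mean of the 4 other leukocyte classes; bar lengths are numbers of genes. Higher calls fill 17 of 18 genes of the T cell receptor list and 16 of 22 transcription factors, and 7 of 15 immediate early genes are lower.

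Against single classes the picture differed in size. Against C1q macrophages 891 genes (13.9%) passed, 351 higher (5.48%) and 540 lower (8.44%), and the direction matched between the mice for 890. The largest fall was that of Pf4, the chemokine CXCL4, at 0 in the T and NK cells and at 604 and 2954 CPM in the macrophages, at least 351-fold lower. Ccl8, Aif1 and Ms4a7 were at 0 in these cells too. Against B cells, the other lymphocytes in the tissue, 223 genes (3.48%) passed, 131 higher (2.05%) and 92 lower (1.44%), and the direction matched for 221. The T cell receptor list gave 13 higher and none lower of 18, and the B cell list 5 lower of 5. Il2rb and Il7r were at 0 in B cells and at least 26.7-fold and 16.9-fold higher in the T and NK cells. Pax5, the factor that fixes B cell identity, and Fcmr, the IgM receptor, were at 0 in the T and NK cells.

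The T and NK cells were split by a few genes into subsets, called by what was detected. Cd3-positive cells with Trdc and without Cd4 or Cd8b1 (gamma-delta-like) numbered 17 of 83 (20.5%, exact 95% interval 12.4 to 30.8) and 11 of 40 (27.5%, 14.6 to 43.9). Cd3-positive cells with Cd8a or Cd8b1 only (CD8-like) numbered 16 and 4, with Cd4 only (CD4-like) 6 and 2, and the other Cd3-positive cells, with none of these genes or a mix, 24 and 17. Cells without a Cd3 UMI but with Klrb1c or Ncr1 (NK-like) numbered 13 and 5, and 7 and 1 cells had neither. Gamma-delta-like cells also carried alpha and beta chain genes. Trac was in 4 and 6 of them (41.9 and 210 CPM) and Trbc1 in 7 and 3 (398 and 450 CPM). Trbc2 was in 8 and 8 (251 and 330 CPM). In CD8-like cells these genes were at 277 and 831, 235 and 416, and 982 and 2338 CPM. The intervals of the mice overlap for every subset. These shares depend on depth: with every cell thinned to 1000 UMIs, gamma-delta-like cells numbered 10 and 8, CD8-like 7 and 1, CD4-like 2 and 0, and NK-like 4 and 3. With only 4 CD8-like, 2 CD4-like and 5 NK-like cells in mouse 2, the tests planned among these subsets were not run, and their levels are given as values.

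**Figure D3:**
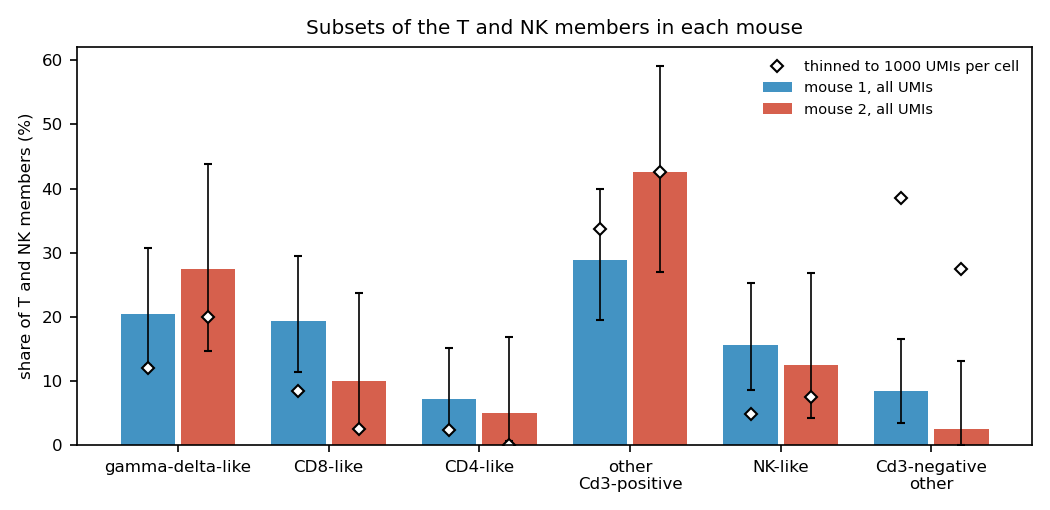
Share of the T and NK cells (vertical, percent) in 6 subsets, 1 bar per mouse with the exact 95% Clopper-Pearson interval; open diamonds give the share after thinning each cell to 1000 UMIs. Gamma-delta-like cells are 20.5% and 27.5%, and for every subset the intervals of the 2 mice overlap.

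Gzma, Prf1 and Ccl5 had their highest levels in NK-like cells. A cell without a Cd3 UMI was chosen only with 2 of Cd2, Nkg7 and Klrb1c, and Nkg7 was in 13 of 13 and 5 of 5 NK-like cells. Genes that travel with Nkg7 or Klrb1c had to be high there, so the levels describe the cells so chosen. Ccl5 was found in 13 of 13 and 5 of 5 NK-like cells, at 17607 and 10554 CPM. The next levels were 8017 and 0 CPM in Cd3-negative cells without Klrb1c or Ncr1, 615 and 2578 CPM in the other Cd3-positive cells (in 1 and 2 cells) and 940 and 468 CPM in CD8-like cells; CD4-like cells had none. Gzma was found in 11 and 4 of them at 5257 and 5818 CPM; the remaining Cd3-negative cells had 2562 and 0 CPM, the other Cd3-positive cells 0 and 592 CPM (in 1 cell), and CD8-like cells 13.8 and 0 CPM. Prf1 was at 887 and 721 CPM. Gzmb was at 1072 and 566 CPM in NK-like cells, against 289 and 26.3 CPM in the other Cd3-positive cells. Ctsw was at 289 and 721 CPM against 18.6 and 26.3 CPM, and at 194 and 519 CPM in CD8-like cells. Serpinb9 was at 701 and 257 CPM against 0 and 0 CPM. Stx11 and Srgn went the other way, at 61.9 and 0 against 233 and 105 CPM, and 1629 and 1030 against 2023 and 1341 CPM. Eomes, a factor of NK and memory CD8 cells, was found in 7 and 3 NK-like cells and in no Cd3-positive cell. In the whole population 21 cells carried Gzma: all 21 also carried Ccl5, 14 carried Prf1, 13 carried Klrb1c, 2 carried Trdc and none carried Scart1. Trbc1 was found in 5 and 5 NK-like cells and Trbc2 in 6 and 0, although these cells have no Cd3 UMI.

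The starts of Gzma and Prf1 are shown since both genes had their highest level in NK-like cells; RUNX factors, such as Runx3 (205 and 155 CPM in the T and NK cells), bind a core of TGTGGT. The 250 bases before each RefSeq start (build GRCm38.p6) are written 5′ to 3′ on the gene's strand, with the core or its reverse complement ACCACA in capitals. Gzma, at chr13:113100982-113101231 on the minus strand, has 1 match whose first base lies 50 bases before the start, and Prf1, at chr10:61297586-61297835 on the plus strand, has 1 at 130 bases. Of 32851 such windows 14.0% hold the core on either strand, so a match is a description of the letters. The core was searched and marked only in the windows of Gzma and Prf1. ACCACA also occurs, unmarked, in the windows of Il17a and Il17f shown further below, so it is not particular to genes high in NK-like cells.
Gzma: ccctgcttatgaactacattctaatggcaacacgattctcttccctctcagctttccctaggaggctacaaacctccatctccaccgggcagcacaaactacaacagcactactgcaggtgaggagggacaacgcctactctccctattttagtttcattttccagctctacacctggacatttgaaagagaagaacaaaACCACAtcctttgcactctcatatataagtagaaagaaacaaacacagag
Prf1: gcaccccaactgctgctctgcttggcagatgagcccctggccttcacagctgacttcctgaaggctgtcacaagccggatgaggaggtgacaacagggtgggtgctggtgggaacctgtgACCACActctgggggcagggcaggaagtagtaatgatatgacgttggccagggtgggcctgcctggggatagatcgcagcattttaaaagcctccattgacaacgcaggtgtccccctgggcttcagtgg

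Ccr7, Lef1 and S1pr1, genes of recirculating cells, had 3 or fewer UMIs each in the gamma-delta-like cells. Ccr7 was at 484 and 416 CPM in CD8-like cells, 224 and 184 CPM in the other Cd3-positive cells, and at 20.9 and 0 CPM in gamma-delta-like cells. Lef1 was at 608 and 727 CPM in CD8-like cells. S1pr1, the receptor for leaving tissue, was found in 8 and 1 CD8-like cells and in no gamma-delta-like cell. Ctla4 was found in 3 of 6 CD4-like cells of mouse 1 at 1251 CPM. Foxp3, the factor of regulatory T cells, was found in 7 cells in all, 6 of mouse 1 and 1 of mouse 2; 5 of them carried Il2ra and 2 carried Cd4.

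Gamma-delta-like cells could be tested, against all other Cd3-positive cells (46 and 23 cells), a comparison chosen after the numbers of cells were known. The fit also held the B cells, C1q macrophages, mast cells and neutrophils, in all 12 sums with 5 residual degrees of freedom. The spread behind its SEs and p-values was thus estimated largely from those other classes. In this comparison the other Cd3-positive cells include the CD8-like and CD4-like cells, so their levels differ from those of the subset of that name. The split rests on a measured gene, Trdc, so genes that travel with it had to differ, and the counts describe the groups so made. The median depth was 3435 and 2978 UMIs in gamma-delta-like cells, and 3866 to 4253.5 and 4282 to 4886.5 in the other Cd3-positive subsets. In mouse 1 the largest cell held 32077 of the 95511 UMIs of the 17 gamma-delta-like cells. Without cells of 1% or more stromal UMIs, 13 cells and 49225 UMIs were left there, and mouse 2 kept its 11. The main test kept all these cells. The threshold was passed by 11 of 5813 genes (0.189%), of which 5 were higher (0.086%) and 6 lower (0.103%) in gamma-delta-like cells, with the direction shared by the mice in each case; 520 genes had an unadjusted p under 0.05, and the median log2 fold change of all was -0.12. With DESeq2 4 genes passed, Scart1, Blk, Ccl5 and Gramd3, without a filter on low counts 44, and with DESeq2's size factors in edgeR 9 (5 higher and 4 lower), where the median of all genes shifted by 0.13.

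Scart1 and Blk, both known from interleukin-17 producing gamma-delta cells, were among the genes that rose. Scart1, a scavenger receptor, was at 764 and 1651 CPM in gamma-delta-like cells, found in 16 of 17 and 9 of 11, and at 54.3 and 0 CPM in the other Cd3-positive cells (log2 fold change 5.10 ± 0.80, SE, n = 2 mice, edgeR adjusted p = 0.00637). Trgc1, a gamma chain constant gene that reads may share with its copies, was at 429 and 870 CPM against 4.93 and 38.1 CPM. Blk, a Src family kinase, was at 346 and 540 CPM against 14.8 and 19.0 CPM. Gm43434, a predicted gene, was at 796 and 1201 CPM against 14.8 and 0 CPM. For these 4 genes, picked by the test, the values of the groups did not overlap, which adds nothing to the test. Among 9 tested genes of the gamma-delta 17 list, Scart1 and Blk were higher and none lower, with a median of 2.08.

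The cytokines themselves were uneven. Il17f passed (log2 fold change 7.13 ± 1.06, edgeR adjusted p = 0.00637; no longer past the threshold with DESeq2 or without the block), but 75 of its 79 UMIs in mouse 1 came from 1 cell, and mouse 2 gave 3 UMIs. Without the highest Scrublet (doublet) scores Il17f had no test. Il17a was found in 9 of 17 and 4 of 11 gamma-delta-like cells, at 869 and 120 CPM against 49.3 and 28.6 CPM in the other Cd3-positive cells; its log2 fold change of 3.44 ± 0.78 did not pass (edgeR adjusted p = 0.102). Il23r, the interleukin-23 receptor, was at 178 and 330 CPM against 54.3 and 124 CPM (edgeR adjusted p = 0.602), and Il1r1, the interleukin-1 receptor, at 220 and 420 CPM against 34.5 and 28.6 CPM (edgeR adjusted p = 0.122). Pdcd1, the inhibitory receptor PD-1, was found in 13 of 17 and 10 of 11 gamma-delta-like cells, at 272 and 1020 CPM against 78.9 and 0 CPM (edgeR adjusted p = 0.382), and Cxcr6 at 377 and 750 CPM against 104 and 85.7 CPM (edgeR adjusted p = 0.185). In all T and NK cells, 25 of 29 cells with Scart1 also carried Trdc, 22 carried Pdcd1, 19 Cxcr6, 13 Il23r and 11 Il17a.

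The starts of Il17a, Il17f and Il23r are shown as the cytokine genes and the receptor gene described above: gamma-delta-like cells of both mice together held 87 of 100 Il17a UMIs, 81 of 82 Il17f UMIs and 28 of 52 Il23r UMIs; AGGTCA is a half-site bound by many nuclear receptors. The 250 bases before each RefSeq start (build GRCm38.p6) are written 5′ to 3′ on the gene's strand, with the half-site or its reverse complement TGACCT in capitals. Il17a, at chr1:20730655-20730904 on the plus strand, has 1 match whose first base lies 120 bases before the start. Il17f, at chr1:20784271-20784520 on the minus strand, has 1 at 58 bases. This window lies inside the RefSeq span of Il17f, chr1:20777146-20785274, so the start used is not the outermost end of the gene. Il23r, at chr6:67491856-67492105 on the minus strand, has 2, at 229 and 66 bases. Of 32851 such windows 14.0% hold this half-site on either strand.
Il17a: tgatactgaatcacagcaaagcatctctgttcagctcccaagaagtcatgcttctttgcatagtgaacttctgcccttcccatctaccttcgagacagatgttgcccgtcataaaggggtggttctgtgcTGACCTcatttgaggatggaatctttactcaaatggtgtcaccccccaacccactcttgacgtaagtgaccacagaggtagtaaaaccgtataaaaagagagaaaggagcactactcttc
Il17f: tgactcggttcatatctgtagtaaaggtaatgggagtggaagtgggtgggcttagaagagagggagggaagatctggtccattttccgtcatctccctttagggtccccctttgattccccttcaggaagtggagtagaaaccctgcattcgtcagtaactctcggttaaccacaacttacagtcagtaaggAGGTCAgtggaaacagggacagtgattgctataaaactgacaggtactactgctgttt
Il23r: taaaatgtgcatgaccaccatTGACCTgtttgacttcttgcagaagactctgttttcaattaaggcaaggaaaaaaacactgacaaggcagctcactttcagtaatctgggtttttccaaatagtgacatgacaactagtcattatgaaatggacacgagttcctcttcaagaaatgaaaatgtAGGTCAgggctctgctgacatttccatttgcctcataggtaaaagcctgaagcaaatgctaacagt

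The genes that fell were carried by other T cells. Ccl5 was at 10.5 and 0 CPM in gamma-delta-like cells and at 661 and 1951 CPM in the other Cd3-positive cells (log2 fold change -7.61 ± 1.22, edgeR adjusted p = 0.00886). Of the 134 UMIs of the latter in mouse 1, 1 cell held 66 and 7 CD8-like cells held 68. In mouse 2, 2 cells held 196 of 205 UMIs. Lef1 was at 10.5 and 0 CPM against 404 and 400 CPM, and Ms4a4b, a membrane protein of the CD20 family, at 0 against 335 and 267 CPM, at least 13.4-fold lower. Gramd3 was at 0 and 30.0 CPM against 562 and 590 CPM. Dgka, a diacylglycerol kinase that dampens receptor signals, and Prkch, a protein kinase C, also fell, by 3.97 ± 0.81 and 3.65 ± 0.75 on the log2 scale. Both lost their call without the highest Scrublet scores, with stromal UMIs under 1%, with DESeq2 or its size factors, and without the block. Lck and Cd28, the receptor's kinase and its costimulator, were at 0 in gamma-delta-like cells of both mice, against 173 and 228 CPM and 252 and 143 CPM (edgeR adjusted p = 0.0685 and 0.0702). The fibroblast list had a median log2 fold change of 2.06 in this comparison, with Col1a1 at 12574.5 and 450.2 CPM in gamma-delta-like cells, where the largest cell of mouse 1 lies; none of its 10 genes passed.

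**Figure D4:**
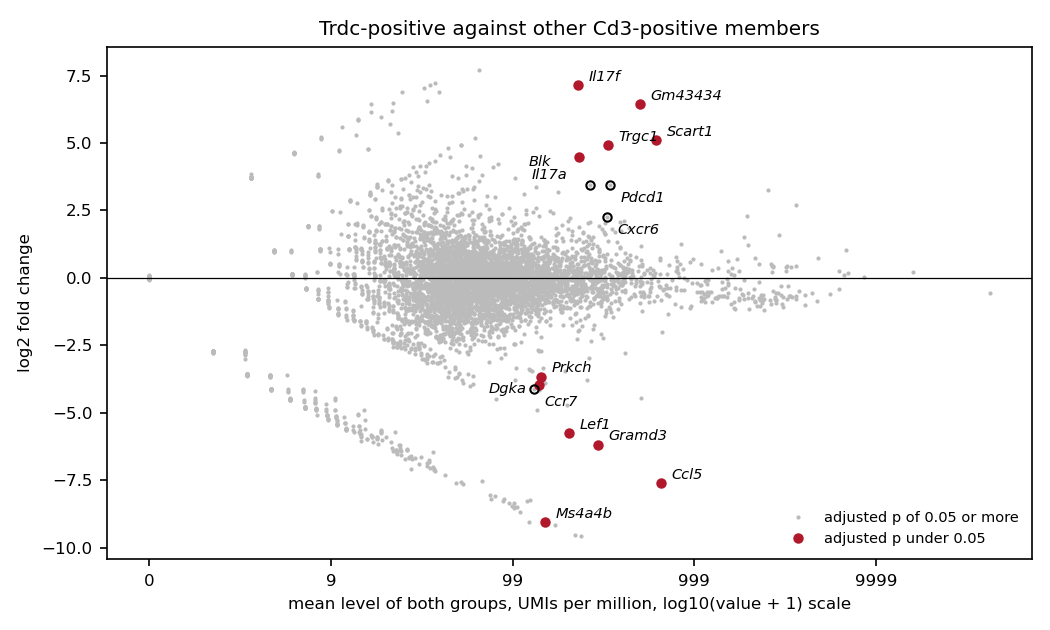
Log2 fold change (vertical) of gamma-delta-like (Trdc-positive) against other Cd3-positive cells and mean level of both groups in CPM on a log10(value + 1) axis, 1 point per tested gene. The 11 genes past an adjusted p of 0.05 are filled and named; Il17a, Pdcd1, Cxcr6 and Ccr7, drawn as open circles, did not pass.

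**Figure D5:**
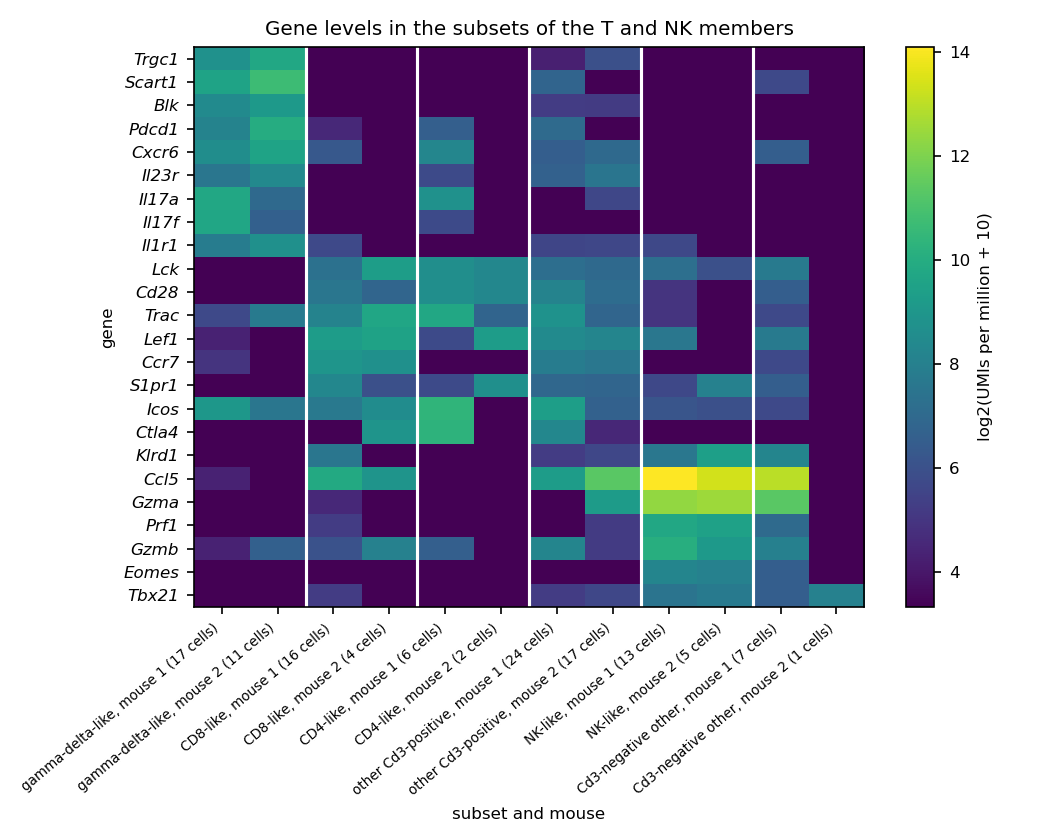
Levels of 24 genes (vertical) as log2(CPM + 10) in the 6 subsets of each mouse (horizontal, with the number of cells). Scart1, Trgc1 and Blk are highest in gamma-delta-like cells, and Ccl5, Gzma and Prf1 in NK-like cells of both mice; columns of few cells rest on few UMIs.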

How the data were processed

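Single-cell RNA from tissue labelled olfactory epithelium of 2 mice was analysed. As deposited, the tables are whole-number counts by gene and barcode, not normalized, and were taken as UMI counts. Per the submitters' processing notes, STAR (no version), Cell Ranger 7.0.0 and build GRCm39 were used; no source used here names the annotation release.

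Cells and classes followed the rules given in the text; totals were 95844802 and 86049057 UMIs. The T and NK cells held 370970 and 161706 UMIs. Levels (CPM) are UMIs per 1000000 of a summed class. Doublets were kept: Scrublet (scanpy 1.11.5) called 0 and 3 cells, under the accepted 0.5%, so an alternative left out the highest scores at 0.8% per 1000 cells, 1599 and 750 cells, with 7 and 2 T or NK cells among them. Counts were summed per mouse and class of at least 10 cells and tested with edgeR 4.0.16 (R 4.3.3; TMM, filterByExpr, robust quasi-likelihood F test, Benjamini-Hochberg over all genes tested, threshold 0.05; SE is the log2 fold change over the square root of F). The mouse entered as a block, since both sides of each comparison come from 1 animal. DESeq2 1.42.0 was an alternative. Scripts were tested on simulated data.

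Named genes were, per comparison, up to 4 members of each list past the threshold by size of change, and the 10 largest changes up and down among those past it with at least 50 CPM in a group; other list genes are given by values. Of 354 list symbols all matched, 7 by an older name. The cells, subsets, lists and rules were chosen with earlier results of these data known. Promoter sequences are RefSeq's, build GRCm38.p6, matched by symbol.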

Additional observations from a re-analysis of the deposited data

How the results depend on the processing

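The total calls against B cells and C1q macrophages stayed within 1.5 times of the totals given under every alternative run. Single genes were less stable: with DESeq2's Wald test 29 of 47 named genes against B cells and 44 of 69 against C1q macrophages passed. By direction, DESeq2 gave 77 higher against B cells, 209 higher against C1q macrophages and 241 higher against the mean of the other classes, and leaving out cells with 1% or more stromal UMIs gave 141 lower against B cells. The count against the mean of the other leukocyte classes was 439 (312 higher, 127 lower) with no replicate block, in place of 665. The gamma-delta comparison gave 4 calls with DESeq2 and 44 with no filter, in place of 11; it was not run with 3 of 6 genes, as its smallest group held 8 cells. No replicate block gave 183, 686 and 8 calls in the other 3 comparisons. The mean share of T and NK cells was 0.297% with 3 of 6 genes, where the rule as given has 0.587% and 0.413% in the mice. Thinning each cell to 1000 UMIs took the mean shares of gamma-delta-like cells from 24.0% to 16.02%, CD8-like from 14.6% to 5.47%, CD4-like from 6.11% to 1.20%, NK-like from 14.1% to 6.16%, and Cd3-negative cells without Klrb1c or Ncr1 from 5.47% to 33.0%. With 3 of 6 genes NK-like cells were 9.27%, and the last group is 0% by construction, as such a cell must carry Klrb1c. No named gene changed direction under any alternative, but the main test on the same 2 mice picked these genes, so this adds nothing to it. Leaving out a mouse leaves no residual degrees of freedom, so those values have no test. The planned comparisons of NK-like, CD8-like, CD4-like and gamma-delta-like cells were not run, because mouse 2 had under 10 cells in the first 3. The removal of cells rich in antigen presentation UMIs was chosen after the data were seen. With 2 mice and 123 cells, genes under 8.09 and 18.6 CPM lie below the floor of 3 UMIs.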

Other observations

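Some transcripts came from single cells. In mouse 1, all 177 Retnla UMIs lay in 1 cell, 1 cell held 48 of the 100 Ikzf2 UMIs, and 1 cell held 80 of the 207 Rgs2 UMIs. The mast cell list was at 111 and 98.9 CPM in the T and NK cells, where Cma1 gave 23 and 12 UMIs in 10 and 5 cells, Ms4a2, Fcer1a, Mcpt8 and Tpsab1 were at 0, and barcodes of at most 50 UMIs held the list at 254 and 153 CPM. Genes of group 2 innate lymphoid cells were sparse in the chosen cells. Of the 11, Il5, Hs3st1 and Ccl1 were at 0 in both mice, Il1rl1 gave 9 and 8 UMIs, and 2 of the 27 cells with Gata3 carried Il1rl1. A cell without a Cd3 UMI was chosen only if it carried 2 of Cd2, Nkg7 and Klrb1c. These values therefore do not tell whether such innate cells were in the tissue. Of proliferation genes, Mki67 was found in 7 and 4 of the cells and Top2a in 7 and 3. The list of 12 had 3 or more UMIs in 16 and 7 cells and summed to 784 and 1051 CPM. Without the largest cell of each mouse the sums were 800 and 542 CPM. The list stood at 297 and 334 CPM in B cells and 304 and 352 CPM in C1q macrophages. Mast cells had 285 and 355 CPM and neutrophils 180 and 1625 CPM.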
